A study of Mus musculus with 2 samples.

Results

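The 82 protein-coding genes whose symbol begins with Il and a digit, the interleukins and their receptor chains, were taken from 43346 genes with an Ensembl identifier in the deposited gene tables. By textbook role they comprise 37 ligands, 38 receptor chains, 6 soluble binding proteins or antagonists (here called decoys) and 1 enzyme, Il4i1. Levels were measured in polyadenylated spleen RNA. The donor was 1 male mouse of strain C57BL/6J, 10 weeks old, with no treatment in the labels. The tissue was sequenced as technical replicate 2, which the labels date to May 2015, and as technical replicate 1, both of biological replicate 1. Both libraries come from the same animal and are labelled technical replicates, so the spread between them says nothing about variation between mice. The sources used here do not say whether both were made from the same RNA.

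Interleukins are secreted proteins through which immune and stromal cells signal to one another. Most act on receptors assembled from several chains. A private chain recognises the ligand, and a shared chain, such as the common gamma chain encoded by Il2rg, the common beta chain encoded by Csf2rb, or gp130 encoded by Il6st, couples it to Janus kinases and STAT factors. Receptors of the IL-1 family instead signal through MyD88 and IRAK kinases. In spleen these genes are known from B cells, T cells, dendritic cells, macrophages and stromal cells, and many ligands are transcribed mainly after stimulation.

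Receptors of the class I cytokine family carry a short signature next to the membrane, tryptophan, serine, any residue, tryptophan, serine. At the DNA level it was searched in frame on the coding strand as TGG, a serine codon (AGC, AGT or TCN), any codon, TGG and a serine codon, in the longest coding sequence of each gene in GENCODE M21 (GRCm38). The signature was present in 15 of 82 members and in 71 of 21373 protein-coding genes, 0.332%. It occurred in 8 of 10 receptor chains and decoys of the common gamma family, among which Il13ra1 and Il13ra2 are counted here. In the gp130 and IL-12 family it occurred in 7 of 9. None of the 12 receptor chains and decoys of the IL-1 family, the 6 of the IL-10 family or the 5 of the IL-17 family held it. No match says only that these letters are absent from that coding sequence, as in Il2ra, Il15ra, Il3ra, Il5ra, Il23r and Il27ra. The 9 sequences below are those of the receptor chains that the levels turn on, with the signature in capitals and 15 coding bases on each side.
Il2rg, chrX:101266200-101266244, minus strand: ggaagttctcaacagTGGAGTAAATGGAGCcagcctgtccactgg
Il7r, chr15:9511136-9511180, minus strand: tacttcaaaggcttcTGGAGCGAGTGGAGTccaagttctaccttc
Il21r, chr7:125628983-125629027, plus strand: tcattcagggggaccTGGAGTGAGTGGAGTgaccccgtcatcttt
Il4ra, chr7:125571539-125571583, plus strand: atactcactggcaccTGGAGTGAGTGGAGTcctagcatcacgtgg
Il9r, chr11:32193196-32193240, minus strand: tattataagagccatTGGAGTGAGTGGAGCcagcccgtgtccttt
Il6ra, chr3:89885915-89885959, minus strand: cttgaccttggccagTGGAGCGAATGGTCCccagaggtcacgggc
Il6st, chr13:112490582-112490626, plus strand: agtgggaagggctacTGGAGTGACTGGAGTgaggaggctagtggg
Il11ra1, chr4:41767544-41767588, plus strand: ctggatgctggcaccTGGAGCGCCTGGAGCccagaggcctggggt
Il11ra2, chr4:42657896-42657940, minus strand: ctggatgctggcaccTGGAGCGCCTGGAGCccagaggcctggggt
The Il11ra1 and Il11ra2 stretches are the same letters, so a read within that stretch cannot be placed on one copy by its letters. The deposited tables give Il11ra2 0 counts in both libraries. The deposited posterior standard deviation of the count, a measure of how reads were divided, was 0.64 in replicate 2 and 1.36 in replicate 1 for Il11ra1. For Il11ra2 it was 0 and 0.4. These are small beside the Il11ra1 counts given below. Gm13305, also on chromosome 4, had 16.26 counts in replicate 2 and 8.75 in replicate 1. Its standard deviations of 0.64 and 1.32 are near those of Il11ra1, so Il11ra2 may not be the only gene that shares its reads.

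Expected counts on genes, rounded, summed to 3806385 in replicate 2 and 27528810 in replicate 1, so replicate 1 was 7.23 times deeper. Defining genes of spleen cells were present in both libraries. Of the B cell genes, Cd79a, part of the B cell receptor, stood at 504 TPM in replicate 2, against 496 TPM in replicate 1. Ms4a1, which encodes CD20, was at 63.5 TPM and 630.4 TPM, and Cr2, a complement receptor, at 62.2 TPM and 734 TPM, in replicates 2 and 1. T cell markers summed to 68.5 TPM and 350 TPM, and red pulp macrophage markers to 104 TPM and 527 TPM, in replicates 2 and 1. The 3 erythroid markers summed to 213394 TPM in replicate 2, against 35542 TPM in replicate 1. Krt5 and Krt14, keratins of skin, were at 0 in both, but Epcam, on the same epithelial list, had 2.15 TPM in replicate 2, against 4.18 TPM in replicate 1. Of the markers of neighbouring pancreas, Cela1 had 4.22, against 17.2 TPM, Prss2 0.25, against 6.45 TPM, and Cpa1 0, against 4.80 TPM. TPM, a relative abundance, sets each gene's length-scaled count against all others in the library. With all else equal, a larger globin share therefore lowers other TPM values. Its part in the member levels was not tested.

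Of the 82 members, 27 reached 1 TPM in replicate 2 and 46 in replicate 1, 25 of them in both. Summed TPM was 548 in replicate 2, against 1834 in replicate 1. TPM was higher in replicate 2 for 8 members and lower for 56, and 18 were at 0 in both. Receptor chains held most of the signal, 84.7% of member TPM in replicate 2 and 76.0% in replicate 1. Across the 48 members at 1 TPM in either library, the rank correlation of TPM between libraries was 0.53, given as a description since the points share the same 2 libraries.

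Ratios of replicate 2 over replicate 1 were formed for the 44 members with a mean of at least 1 TPM and at least 50 counts over both libraries. Each has an exact 95% interval for counting error. Each side has 1 library, so no replicate check exists, no p-value is given, and each call compares these libraries. A member is called higher or lower where its whole interval lies beyond 1.5-fold under TMM scaling, DESeq2 size factors and total counts, with TPM in the same direction. By that rule 4 members were higher (9.09%, against 11.8% of all 12467 genes tested) and 18 were lower (40.9%, against 30.5%). The share of higher members is near the background. The median log2 ratio was -0.53 for the members, against -0.27 for all genes, under TMM, and -1.79 against -1.53 under total counts. With the 5 tested members at 0 counts in replicate 2 placed below all others, the TMM median was -0.60. The direction of many ratios rests on the scaling: TMM ratios lie 1.26 above those from total counts, and 10 of the 44 members have opposite signs under these scalings. Under TMM alone 7 members were higher and 18 lower, where 28.0% and 32.6% of all tested genes were. Under DESeq2 size factors alone the counts were 8 and 18, against 29.5% and 30.5% of all genes, and under total counts alone 4 and 31, against 14.6% and 58.5%. Total counts can therefore remove a higher call made under TMM but not a lower one. Exons of 16 members overlap those of another gene, among them 6 called members (Il11ra1, Il12rb2, Il1a, Il1rap, Il2rg and Il34), and their counts are less certain. A level in bulk tissue does not separate the number of cells from the RNA per cell. Both libraries come from the same animal, so the calls between them describe differences between the libraries and not between mice.

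**Figure D1:**
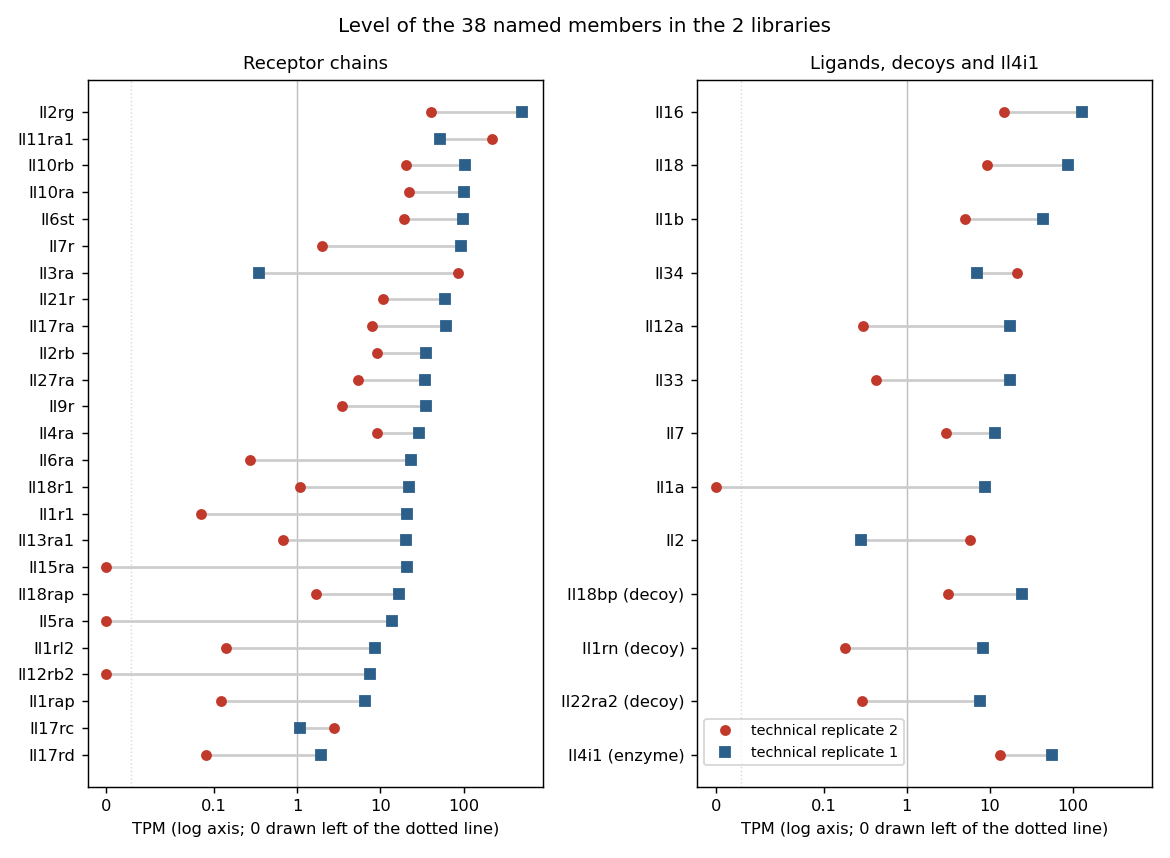
TPM on a log axis of the 38 named members in technical replicate 2 (circles) and technical replicate 1 (squares), with receptor chains on the left and ligands, decoys and Il4i1 on the right. The grey line marks 1 TPM. Circles lie left of squares for every named member except Il11ra1, Il3ra, Il17rc, Il34 and Il2, and 4 members sit at 0 in replicate 2.

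The common gamma family had no member called higher, and 5 of its 9 receptor chains were lower in replicate 2 (55.6%, against 30.5% of all genes tested). Its receptor chains summed to 76.7 TPM in replicate 2, against 815 TPM in replicate 1. Il2rg, the shared chain itself (ENSMUSG00000031304.14, chromosome X, 101264378 to 101268255, minus strand), had 40.8 TPM and 353 counts in replicate 2, against 511 TPM and 11723 counts in replicate 1. It was the member of highest TPM in replicate 1, and its log2 ratio was -0.94 (-1.09 to -0.78). Il7r is the private chain of the receptor for IL-7, a survival factor of naive T cells (ENSMUSG00000003882.4, chromosome 15, 9505788 to 9530176, minus strand). It had 1.99 TPM and 36 counts in replicate 2, against 93.96 TPM and 5426 counts in replicate 1. Its log2 ratio of -3.12 (-3.63 to -2.65) lay below that of Il2rg, with which it pairs, and the intervals of these chains do not overlap. Il9r, for the mast cell and T cell factor IL-9, had 3.44 TPM and 55 counts in replicate 2, against 35.4 TPM and 2210 counts in replicate 1 (-1.21, -1.63 to -0.83). Il13ra1 is counted in this family here, although it joins Il4ra, not Il2rg, in the receptor that also binds IL-13. It had 0.67 TPM and 14 counts, against 20.3 TPM and 1367 counts (-2.49, -3.37 to -1.74). Il15ra, the high-affinity IL-15 binding chain, was at 0 in replicate 2, against 20.7 TPM and 484 counts in replicate 1. With the 0 set to a floor of 3 counts in the 3806385 of replicate 2, Il15ra is 9.30-fold lower under TMM and 22.3-fold lower under total counts. Its exact interval, which allows for a little more, lies wholly below -2.91 on the log2 scale under TMM and below -4.18 under total counts.

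The remaining gamma family chains were not called. Il2rb, shared by the IL-2 and IL-15 receptors, had 8.99 TPM and 135 counts in replicate 2, against 35.8 TPM and 1712 counts in replicate 1. Il21r, for IL-21, a factor of B cell help, had 10.8 TPM and 156 counts, against 60.1 TPM and 2779 counts. Their log2 ratios were 0.45 (0.19 to 0.71) for Il2rb and -0.04 (-0.28 to 0.19) for Il21r under TMM, above that of Il2rg. Il4ra, the IL-4 chain, had 9.21 TPM and 268 counts in replicate 2, against 29.0 TPM and 2717 counts in replicate 1. Its ratio was 0.78 (0.59 to 0.96) under TMM and -0.49 under total counts, so its direction rests on the scaling. Il2ra, the alpha chain that raises affinity for IL-2, had 22 counts in replicate 2, against 548 in replicate 1 (-0.52, -1.21 to 0.09). By the same rule 2 of the 4 T cell markers were lower, Cd3e with 3.53 TPM in replicate 2, against 55.1 TPM in replicate 1, and Cd4 with 3.95, against 54.7 TPM. Cd8a had 11.4, against 75.1 TPM, and Cd3g 49.7, against 165 TPM. Both NK cell markers were lower, Ncr1 at 0.38, against 22.5 TPM, and Klrb1c at 1.05, against 21.2 TPM. None of these marker genes was at 0, and their part in the levels of this receptor family was not tested.

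The alpha chains that pair with the common beta chain went opposite ways. Il3ra, the IL-3 binding chain (ENSMUSG00000068758.7, chromosome 14, 14346275 to 14356011, plus strand), had 85.1 TPM and 629 counts in replicate 2, against 0.35 TPM and 8 counts in replicate 1. It gave the largest ratio of the 44 members, 10.4 on the log2 scale (9.43 to 11.6) under TMM and 9.15 under total counts. Il5ra, the IL-5 binding chain of eosinophils and some B cells, was at 0 in replicate 2, against 13.6 TPM and 394 counts in replicate 1, 7.57-fold lower under TMM at that floor, with an interval wholly below -2.62. Csf2rb, the common beta chain, had 1.25 TPM in replicate 2, against 40.8 TPM in replicate 1. Csf2rb2, a further partner chain, had 0.65 TPM in replicate 2, against 20.9 TPM in replicate 1. Il3ra thus exceeded both Csf2rb and Csf2rb2 in replicate 2, and both exceeded Il3ra in replicate 1. Basophils and mast cells are well known for the IL-3 receptor. Of their markers, Mcpt8, Fcer1a and Ms4a2 were all at 0 in replicate 2, and together they summed to 3 TPM in replicate 1. Plasmacytoid dendritic cells, known for this receptor in human, had Siglech at 5.63 TPM in replicate 2, against 40.2 TPM in replicate 1, and Bst2, which other cells also express, at 526, against 62.9 TPM. The part of plasmacytoid cells in the Il3ra level was not tested.

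Among gp130 and IL-12 family receptors summed TPM was 246 in replicate 2, against 218 in replicate 1, and a single chain, Il11ra1, held the larger part of it in replicate 2. Il11ra1, the IL-11 binding chain (ENSMUSG00000073889.6, chromosome 4, 41699989 to 41769474, plus strand), had 220 TPM and 553.74 counts in replicate 2, against 51.5 TPM and 467.25 counts in replicate 1. Its ratio was 4.36 (4.18 to 4.54), and it was the member of highest TPM in replicate 2. Il6st, which encodes gp130, had 19.5 TPM and 847 counts in replicate 2, against 99.6 TPM and 9775 counts in replicate 1. Under TMM its ratio was 0.59 (0.49 to 0.69), but total counts gave -0.67, and it was not called. Il6ra, the IL-6 binding chain, had 0.27 TPM and 5 counts in replicate 2, against 23.6 TPM and 1423 counts in replicate 1. The Il6ra ratio of -4.04 (-5.66 to -2.81) stands far from that of Il6st, the chain it signals through, and their intervals do not overlap. Il12rb2, the signalling chain of the IL-12 receptor, was at 0 in replicate 2, against 7.6 TPM and 377 counts in replicate 1, 7.24-fold lower under TMM at the same floor, with an interval wholly below -2.55. Its exons overlap those of Serbp1 on the opposite strand by 1419 bases, and the sources used here do not say whether counting used strand. Il27ra, the IL-27 chain, had 5.40 TPM and 80 counts, against 34.2 TPM and 1614 counts, and was not called (-0.22, -0.56 to 0.11).

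Receptors of the IL-1 system were low in replicate 2. Of its 5 tested receptor chains 4 were lower, where 30.5% of all genes were, and its receptor chains summed to 3.53 TPM in replicate 2, against 76.9 TPM in replicate 1. Il1r1, the signalling IL-1 receptor of stromal and myeloid cells, had 0.07 TPM and 2 counts in replicate 2, against 20.9 TPM and 1874 counts in replicate 1. Its ratio of -5.76 (-8.80 to -3.90) was the lowest among tested members with counts in both libraries. Il1rap, the accessory chain shared by the receptors for IL-1, IL-33 and IL-36, had 0.12 TPM and 3 counts, against 6.61 TPM and 519 counts (-3.32, -5.60 to -1.76). Il1rl2, the IL-36 binding chain, had 0.14 TPM and 3 counts, against 8.64 TPM and 502 counts (-3.27, -5.55 to -1.71). The chains of the IL-18 receptor differed from each other, with intervals that do not overlap. Il18r1, which binds IL-18, had 1.07 TPM and 17 counts, against 22.3 TPM and 1497 counts (-2.34, -3.13 to -1.66). Il18rap, its accessory chain, had 1.68 TPM and 47 counts, against 16.6 TPM and 1151 counts (-0.50, -0.95 to -0.08), and was not called.

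Il1r2, Il1r1, Il1rl2, Il1rl1, Il18r1 and Il18rap lie together on chromosome 1 from 40074079 to 40551705. Within this cluster Il1r2, a decoy that binds IL-1 without signalling, had 3.80 TPM in replicate 2, against 4.23 TPM in replicate 1. Its ratio was 1.55 (0.65 to 2.35) under TMM and 0.29 under total counts, so it was not called. Other soluble inhibitors were lower or uncalled. Il1rn, the receptor antagonist of IL-1, had 0.18 TPM and 2 counts, against 8.16 TPM and 237 counts (-2.77, -5.83 to -0.90). Il18bp, which neutralises IL-18, had 3.10 TPM and 23 counts, against 24.6 TPM and 569 counts (-0.51, -1.18 to 0.09). Of the 4 stromal and endothelial markers, Ccl19 was higher, at 363 TPM in replicate 2, against 105 TPM in replicate 1, and none was lower by the rule. Pdgfrb, Pecam1 and Col1a1 were not called. They had 4.59, 52.1 and 2.35 TPM in replicate 2, against 10.6, 111.8 and 5.43 TPM in replicate 1. The neutrophil markers S100a8 and S100a9 had 39.0 and 72.2 TPM in replicate 2, against 473 and 424 TPM in replicate 1, and neither was called.

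No receptor chain of the IL-10 family was called. Il10ra, the ligand-binding chain for the anti-inflammatory IL-10, had 21.9 TPM and 421 counts in replicate 2, against 100 TPM and 6245 counts in replicate 1. Il10rb, its shared partner, had 20.2 TPM and 209 counts, against 102.93 TPM and 3280.98 counts. The levels of these chains were nearly equal within each library. Their TMM ratios were 0.23 (0.08 to 0.37) for Il10ra and 0.14 (-0.06 to 0.35) for Il10rb, and their total-count ratios were -1.04 and -1.12. Il22ra2, a soluble decoy for IL-22, was lower with 0.29 TPM and 4 counts, against 7.63 TPM and 337 counts (-2.28, -4.16 to -0.91). In the IL-17 family, Il17ra, the common chain, had 7.99 TPM and 180 counts, against 61.0 TPM and 4413 counts, and was not called (-0.50, -0.72 to -0.28). Its partner Il17rc, needed for IL-17A and IL-17F, had 2.73 TPM and 26 counts in replicate 2, against 1.09 TPM and 28 counts in replicate 1, and was higher at 4.01 (3.18 to 4.83). Near-equal counts in libraries of such unequal depth are what this ratio shows. Il17rd, known also as an inhibitor of fibroblast growth factor signalling, was lower with 0.08 TPM and 4 counts, against 1.95 TPM and 299 counts (-2.11, -3.99 to -0.74).

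**Figure D2:**
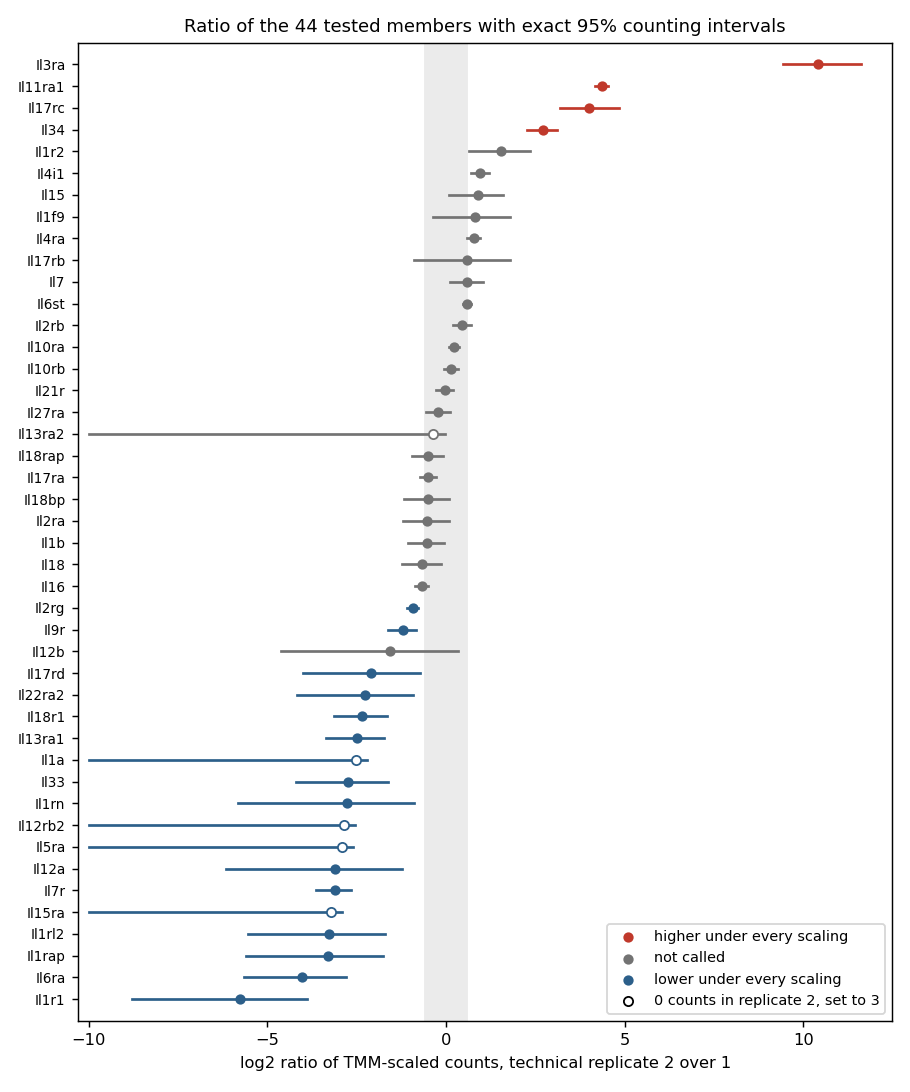
log2 ratio of TMM-scaled counts, technical replicate 2 over 1, for the 44 tested members in order, with exact 95% counting intervals; bars reaching the left edge come from 0 counts in replicate 2. The grey band is 1.5-fold, and the 4 higher members (Il3ra, Il11ra1, Il17rc, Il34) stand above it while the 18 lower ones lie below it.

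Ligands summed to 63.1 TPM in replicate 2, against 337 TPM in replicate 1, below the receptor chains in both. Of 37, 8 reached 1 TPM in replicate 2 and 12 in replicate 1, 7 of them in both. Another 15 were at 0 in both libraries, among them Il13, Il5, Il9, Il22 and Il17a, cytokines of activated helper T cells and related lymphocytes. Il16, a chemoattractant released from a precursor that lymphocytes make constitutively, was the ligand of highest TPM in replicate 1. It had 14.6 TPM and 261 counts in replicate 2, against 128 TPM and 7241 counts in replicate 1 (-0.68, -0.86 to -0.50), and its exons overlap those of Stard5 on the opposite strand by 1084 bases. Il18 and Il1b are both made by macrophages as precursors and matured by caspase-1. Il18 had 9.30 TPM and 31 counts, against 87.3 TPM and 854 counts (-0.67, -1.23 to -0.15). Il1b had 5.02 TPM and 36 counts, against 43.5 TPM and 903 counts (-0.53, -1.05 to -0.05). Il16, Il18 and Il1b were not called. Nor was Il4i1, an amino acid oxidase that IL-4 induces in B cells and no interleukin itself, with 13.3 TPM and 149 counts, against 55.2 TPM and 1327 counts. Under TMM its ratio was 0.96 (0.71 to 1.21), while total counts gave -0.30. Its exons overlap those of Tbc1d17 on the opposite strand by 1227 bases.

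Of the 11 tested ligands 1 was higher (9.09%, against 11.8% of all genes) and 3 were lower (27.3%, against 30.5%), both near the background. Il34, an alternative ligand of the macrophage growth factor receptor (chromosome 8, 110741829 to 110805924, minus strand), had 21.1 TPM and 67 counts in replicate 2, against 6.99 TPM and 178 counts in replicate 1. It was higher at 2.71 (2.28 to 3.12) and was the ligand of highest TPM in replicate 2. Il33, an alarmin kept in the nuclei of stromal cells, was lower with 0.43 TPM and 6 counts, against 17.3 TPM and 696 counts (-2.74, -4.19 to -1.61). Il12a, the p35 chain of IL-12, was lower with 0.30 TPM and 2 counts, against 17.6 TPM and 297 counts (-3.10, -6.15 to -1.23). Il1a, a ligand of Il1r1, was at 0 in replicate 2, against 8.70 TPM and 297 counts in replicate 1, 5.71-fold lower under TMM at the floor of 3 counts, with an interval wholly below -2.21. For both Il1a and Il12a, then, replicate 2 held at most a few reads. Il7, the stromal survival factor for lymphocytes, had 2.93 TPM and 42 counts, against 11.6 TPM and 484 counts (0.59, 0.10 to 1.05), and was not called. The interval of its receptor chain Il7r lies wholly below that of Il7. Dendritic cells are a known source of IL-12. Of their markers Itgax was lower with 4.66 TPM in replicate 2, against 54.7 TPM in replicate 1, as was Xcr1 with 0.99, against 14.98 TPM, while Flt3 had 8.00, against 28.0 TPM and was not called. Their part in the Il12a level was not tested.

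Il2, the T cell growth factor, was among the highest ligands in replicate 2 by TPM although it lay under the count minimum and has no call. It had 5.82 TPM and 34.48 expected counts in replicate 2, against 0.28 TPM and 5.10 counts in replicate 1. The deposited posterior standard deviation of its count was 7.35 in replicate 2 and 0.35 in replicate 1, a spread that the tables give where reads are divided among genes, so the Il2 level is uncertain. Its coding sequence holds a run of 12 CAG triplets, printed with the run in capitals because such a run also occurs in other transcripts.
Il2, chr3:37125754-37125819, minus strand: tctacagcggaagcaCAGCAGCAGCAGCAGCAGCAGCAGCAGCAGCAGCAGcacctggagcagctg
A run at least as long was found in transcripts of 25 of 21572 protein-coding genes (0.116%), and Il2 was the only member among them. Which part of Il2 the reads came from is not in the tables used here.

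Of the 16 members at 0 in replicate 2 and above 0 in replicate 1, 10 would have had under 3 counts in replicate 2 at the replicate 1 share. These include Il4, with 15 counts in replicate 1, Il21, with 21, Il6, with 8, and Il23r, with 9, and a difference in them was not detectable at this depth. The other 6 would have had 3 or more: Il15ra, Il5ra, Il12rb2, Il1a, Il13ra2 and Il31ra. Il13ra2, the IL-13 decoy, had 67 counts in replicate 1 and is 1.29-fold lower under TMM at the floor of 3 counts. Its interval reaches up to -0.026, which is no call.

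Because most of these receptors need every chain, the lowest chain of each of 25 receptor complexes was taken. All chains reached 1 TPM for 10 complexes in replicate 2 and for 18 in replicate 1, 9 of them in both. The IL-3 receptor, taken here as Il3ra with Csf2rb and without Csf2rb2, was complete at this level in replicate 2 only. Its lowest chain there was Csf2rb at 1.25 TPM, against Il3ra at 0.35 TPM in replicate 1. By gene TPM the IL-10 receptor had the highest minimum in both, 20.2 TPM in replicate 2 and 100 TPM in replicate 1. The coding transcript Il10ra-201 alone was at 5.74 TPM in replicate 2, against 91.8 TPM in replicate 1, so that order holds for gene TPM and not for coding transcripts in replicate 2. The receptors for IL-7, IL-21, IL-9, IL-27, IL-11 and IL-18, the type I IL-4 receptor and the receptor for IL-17A and IL-17F also had every chain at 1 TPM in both libraries. These too are gene TPM: a retained-intron transcript held 89.98% of Il11ra1 TPM in replicate 2 and 77.6% in replicate 1. Those for IL-6, IL-15, IL-5, IL-1, IL-33, IL-36 and IL-25, the high-affinity IL-2 receptor and the type II receptor of IL-4 and IL-13 did so in replicate 1 only. The same chain was lowest in both libraries in 18 of the 25. The IL-1 receptor was one of the 7 that differed, with Il1r1 lowest in replicate 2 and Il1rap in replicate 1.

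**Figure D3:**
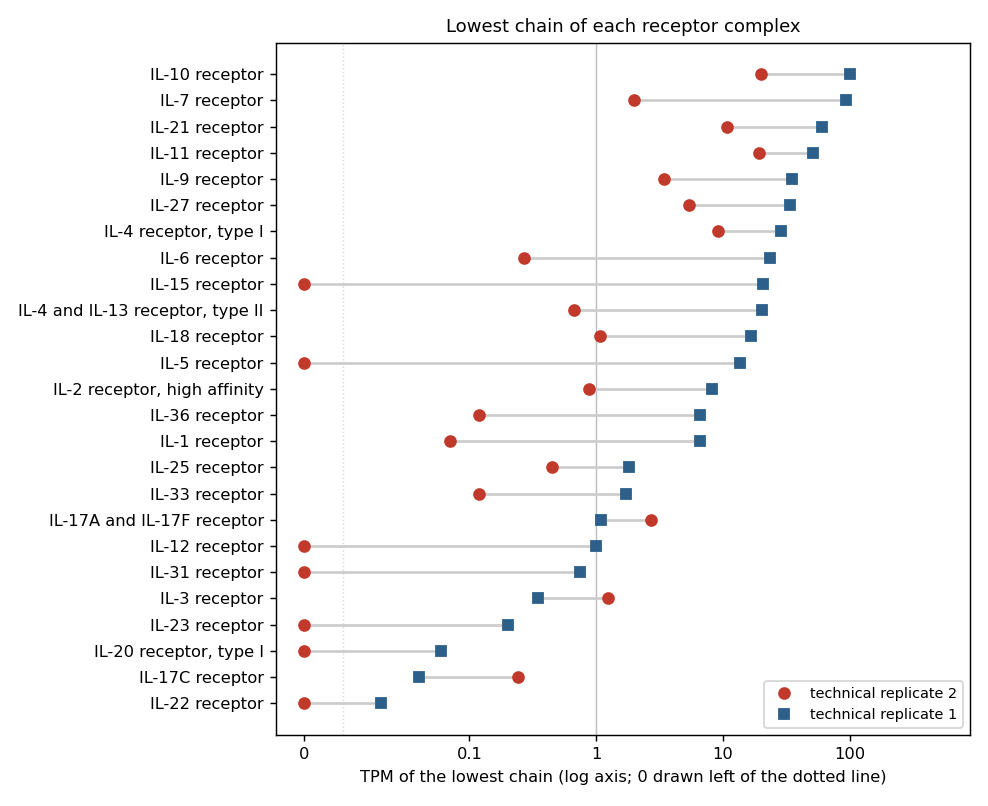
Gene TPM (log axis) of the lowest chain of each of 25 receptor complexes in technical replicate 2 (circles) and technical replicate 1 (squares). The grey line is 1 TPM, which 10 complexes reach in replicate 2 and 18 in replicate 1; the IL-17A and IL-17F, IL-3 and IL-17C receptors are the 3 with the circle to the right.

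The transcripts that carried the family also differed. Of 18 named members with several transcripts and a mean of at least 5 TPM, 12 had the same leading transcript in both libraries, 5 did not, and in 1, Il18, replicate 2 was an exact tie. Among the 12, Il1r1 and Il12a rest on 2 counts each in replicate 2 and Il33 on 6, so their leading transcript there is uncertain. Il10ra was led in replicate 2 by Il10ra-203, annotated as a target of nonsense-mediated decay, with 73.8% of its TPM, against 0.24% in replicate 1. There the coding Il10ra-201 led with 91.4%, and it held 26.2% in replicate 2. All of the Il34 signal in replicate 2 lay on Il34-205, a processed transcript of 675 bases with no annotated coding sequence, at the 3′ end of the gene (chromosome 8, 110741829 to 110742698). Il34-205 held 9.21% in replicate 1, where the coding Il34-201 held 84.2%, so the higher call of Il34 rests on that short transcript, whose span overlaps the 3′ end of Il34-201.

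Il11ra1 was led in both libraries by Il11ra1-206, a retained-intron transcript of 523 bases at the 3′ end (chromosome 4, 41768448 to 41769474), with 89.98% of its TPM in replicate 2 and 77.6% in replicate 1. Its start lies downstream of the signature printed above for Il11ra1. It shares that end with coding transcripts, of which Il11ra1-203 and Il11ra1-204 had 1.87 and 0 TPM in replicate 2, against 0 and 2.23 TPM in replicate 1. Per length, a short transcript turns few counts into a high TPM, and Il11ra1-206 had 450.78 counts in replicate 2, against 253.97 in replicate 1. Il18r1 moved to Il18r1-206, with 100% in replicate 2, against Il18r1-202, with 80.9% in replicate 1, but rests on 17 counts in replicate 2. Il6st was led by Il6st-203 with 67.6% in replicate 2, against 33.2% in replicate 1, and Il9r by Il9r-201, another decay target, with 42.5%, against 0.16%. Il18 was split evenly between Il18-201 and Il18-202, which have the same span and length, in replicate 2 and lay on Il18-202 alone in replicate 1. Over all members, 48.4% of TPM in replicate 2 and 15.2% in replicate 1 fell on transcripts of an annotated class other than protein-coding, decay targets included. Without Il11ra1 these shares were 14.5% in replicate 2 and 12.9% in replicate 1, against 20.0% and 14.1% over all protein-coding genes, so the difference between the libraries rests mainly on 1 gene.

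**Figure D4:**
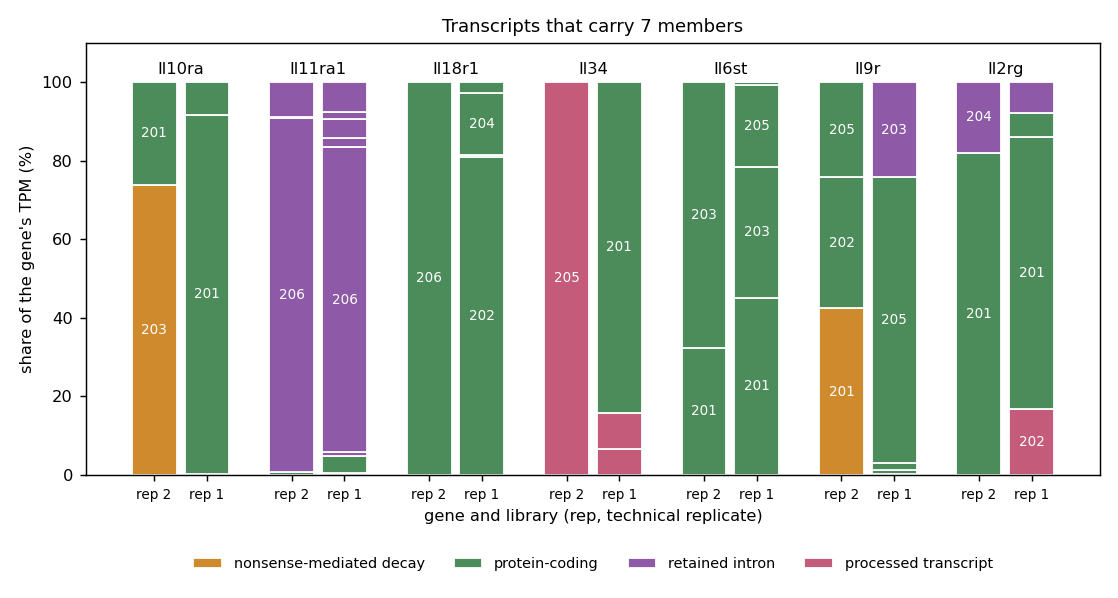
Share of each gene's TPM (%) by transcript in technical replicate 2 (left bar) and technical replicate 1 (right bar) for 7 members, coloured by annotated class, with the transcript number in segments of 12% or more. In replicate 2 a processed transcript carries all of Il34, a target of nonsense-mediated decay 73.8% of Il10ra, and a retained-intron transcript 89.98% of Il11ra1.

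Other genes of the pathway were described from a list of 41 partner chains, signal carriers, feedback inhibitors and ligand-processing genes. By the same rule 3 were higher (7.32%, against 11.8% of all genes tested) and 15 lower (36.6%, against 30.5%) in replicate 2, shares not far from the background. Of 10 partner chains, 5 were lower (Csf2ra, Csf2rb, Csf2rb2, Lifr, Osmr) and Sigirr, an inhibitory IL-1 receptor relative, was higher with 7.99 TPM, against 6.65 TPM (2.72, 2.35 to 3.08). Osmr, which pairs with Il31ra or gp130, had 0.16 TPM, against 18.0 TPM (-4.11, -5.73 to -2.88). Of 18 signal carriers 6 were lower, 33.3% and near the 30.5% of all genes, and none was higher. Jak1, which binds both gp130 and many private chains, had 7.78 TPM in replicate 2, against 262 TPM in replicate 1 (-2.53, -2.73 to -2.34). Jak3, the kinase of the common gamma chain, had 8.06 TPM, against 10.3 TPM (2.11, 1.85 to 2.37), and was not called because its TPM lay in the other direction. Of 8 feedback inhibitors, Socs1 was higher at 2.82, against 1.73 TPM, and Socs4 and Socs6 were lower. In ligand processing, the inflammasome adaptor Pycard was higher at 29.6, against 25.1 TPM, and Casp1 and Nlrp3 were lower at 2.25 and 0.04 TPM, against 63.1 and 5.90 TPM.

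The ratio of a member went with the GC content of its transcripts. Across the 44 members the rank correlation was 0.51, and across 12437 tested genes with a GC value it was 0.53. With transcript length it was -0.30 for members and -0.39 for all. These are descriptions, and all points share the same libraries. Among 13 members under 45% GC the median log2 ratio was -2.34, against -1.44 for all genes in that range, and 8 were lower and 0 higher, where 53.8% of all genes were lower. Among 14 from 45% to 50% the median was -1.25, against -0.79 for all genes, and 7 were lower, where 37.9% of all genes were. Among 12 from 50% to 55% it was -0.36, against 0.23 for all genes, with 3 lower and 1 higher, where 20.02% and 11.1% of all genes were. Of 5 members at 55% or more, 3 were higher and 0 lower, where 38.2% and 5.92% of all genes were, with a median of 2.71, against 1.97 for all genes. Not every member follows the trend: Il7, at 37.6%, stood at 0.59 and was not called, while Il6ra, at 52.9%, stood at -4.04. Il3ra, at 65.9%, has the highest GC content of the tested members, and Il7r is at 40.5%. The first 150 coding bases of these receptor chains, joined across introns, show the contrast with G and C in capitals.
Il3ra, chr14:14347131-14348005, plus strand: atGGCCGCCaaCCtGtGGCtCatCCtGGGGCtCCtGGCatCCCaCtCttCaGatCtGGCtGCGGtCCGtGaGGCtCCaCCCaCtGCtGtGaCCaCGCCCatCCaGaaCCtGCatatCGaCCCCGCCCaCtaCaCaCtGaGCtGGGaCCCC
Il7r, chr15:9525125-9529742, minus strand: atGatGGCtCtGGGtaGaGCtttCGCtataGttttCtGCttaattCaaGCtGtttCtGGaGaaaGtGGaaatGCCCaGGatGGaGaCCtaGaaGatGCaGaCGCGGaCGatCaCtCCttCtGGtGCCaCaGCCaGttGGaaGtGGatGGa
G and C make up 64.0% of the Il3ra stretch and 49.3% of the Il7r stretch, and 64.1% and 44.1% of their whole coding sequences. With the GC trend over all genes removed, 2 of the 4 higher members (Il11ra1 and Il3ra) and 14 of the 18 lower ones kept their call. Il17rc, Il34, Il13ra1, Il1rn, Il22ra2 and Il2rg lost it, and 6 other members gained one. The size of the change differed among them. Il17rc stood at 0.05 with the trend removed, against 4.01 before, and Il34 at 0.80, against 2.71. The GC value of Il17rc is that of Il17rc-201, which held 0% of its TPM in replicate 2 and 4.41% in replicate 1. The other Il17rc transcripts with counts had no match in GENCODE M21, so its value with the trend removed is uncertain. Il13ra1 stood at -1.43, against -2.49, and Il22ra2 at -1.06, against -2.28. Il1rn at -2.29 and Il2rg at -0.81 lay close to their values before, -2.77 and -0.94. Il3ra kept its call at 5.14, against 10.4.

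**Figure D5:**
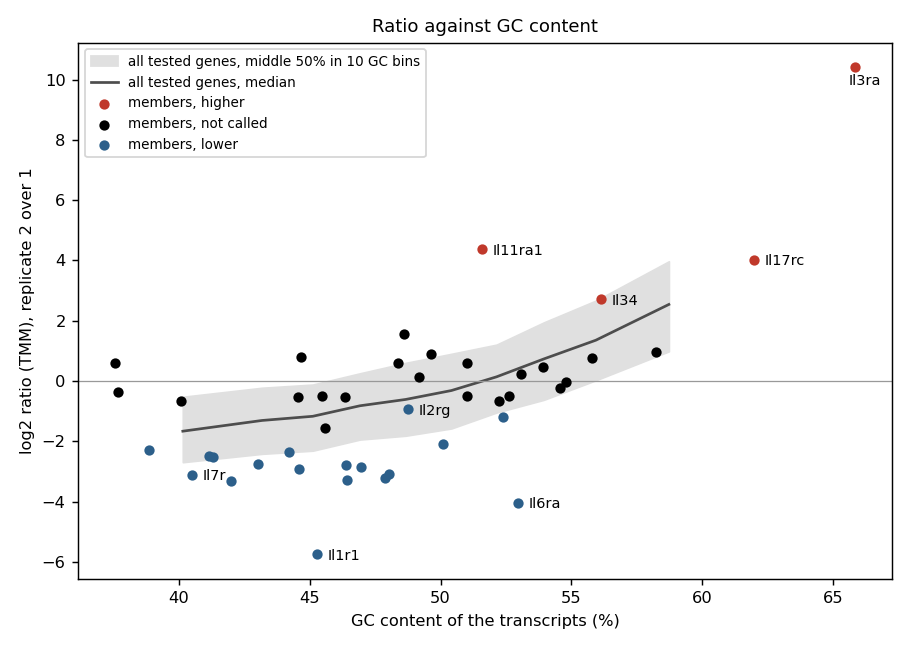
log2 ratio (TMM), technical replicate 2 over 1, against the GC content (%) of the transcripts for the 44 tested members, coloured by call, over the median and middle 50% of all tested genes in 10 GC bins of equal gene number. Il3ra, at 65.9% GC, lies at the top right, and Il1r1 is lowest at -5.76.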

How the data were processed

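Per the labels, polyadenylated RNA of 1 spleen was made into 2 libraries with a size range of 350 to 450, no unit given. The authors deposited gene and transcript tables on mm10, with GENCODE M4 named in the deposited text; the sources used here do not give the aligner, the quantifier, the strand setting or whether both libraries were processed alike. The deposited gene values are, per the file headers, an expected count, which divides shared reads among genes, and TPM. The deposited FPKM was used only as an alternative. The deposited percent value is a transcript's share of its gene's TPM. Deposited lengths and posterior standard deviations are other measures.

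Symbols, classes, coordinates and sequences came from GENCODE M21 (GRCm38), which matched all 82 members and 233 of their 238 transcripts, 211 at the same length. Counts were rounded. Scaling used edgeR 4.0.16 and DESeq2 1.42.0 in R 4.3.3, and the rest Python 3.11.15 (scipy 1.17.1, statsmodels 0.14.6, pandas 2.3.3, numpy 2.4.6, matplotlib 3.10.9). Intervals are exact Clopper-Pearson 95% intervals conditional on a gene's counts, cover counting error only (PCR reads are not independent molecules), and use a floor of 3 counts for a 0 in the point value. GC content was averaged by TPM over the transcripts matched to GENCODE M21, and its trend was fitted with lowess (fraction 0.3). The interval and the call under TMM were tested on simulated counts.

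Named members have a mean of at least 5 TPM, a call, or a place among the 5 highest ligands or receptor chains of a library; members named beyond these were chosen after their values were seen. Roles, families and complexes are textbook assignments. The members, lists and the rule that a call holds under every scaling were chosen with earlier results of these data known. Not every marker examined is reported here.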

Additional observations from a re-analysis of the deposited data

How the results depend on the processing

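No paired analysis was possible because each side has 1 library. The count of higher members was 4 by the rule over every scaling, 7 under TMM alone, 8 under DESeq2 size factors alone and 2 with the GC trend removed. It was 3 to 6 under the other filters, thresholds and interval levels run. The count of lower members was 18, against 31 under total counts alone and 11 with a mean of at least 5 TPM, and 13 to 20 otherwise. For several uncalled members the sign turned with the scale. Under total counts the log2 ratio was -1.04 for Il10ra, -1.12 for Il10rb, -0.30 for Il4i1, -0.49 for Il4ra, -0.81 for Il2rb and -0.67 for both Il6st and Il7; under DESeq2 size factors it was 0.08 for Il21r, against -0.04. As TPM ratios with pseudocounts of 1 and 0.1 the values were -2.15 and -2.19 for Il10ra, -2.29 and -2.34 for Il10rb, -1.88 and -1.98 for Il2rb, and -1.98 and -2.05 for Il4i1. They were -1.55 and -1.64 for Il4ra, -2.30 and -2.35 for Il6st, and -1.68 and -1.95 for Il7. With the GC trend removed it turned for Il4i1 (-1.70), Il4ra (-1.02), Il10ra (-0.66), Il2rb (-0.71), Il18 (0.48) and Il18rap (0.12). The rule already requires the same direction under every scaling and in TPM. A called member could therefore reverse only with the GC trend removed, and none did. The share of member TPM on receptor chains in replicate 2 was 81.7% with posterior mean TPM, against 84.7%. Depth limits replicate 2: for the 10 members at 0 there with under 3 counts expected, a lower level was not detectable. The cause of these changes was not tested.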
